A study of Mus musculus with 8 samples.

Results

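The collagen chain genes were the protein-coding genes whose symbol is Col, a number, the letter a and a number, such as Col1a1. This rule took 44 of the 54532 genes in the deposited table. The genes encode the chains that assemble into collagens. They were measured by RNA sequencing of hearts of C57BL/6 mice, with 2 libraries for each of 4 groups: wild-type (WT) sham, WT TAC, Piezo1-Cko sham and Piezo1-Cko TAC. TAC commonly stands for transverse aortic constriction, in which the aorta is tied narrower so that the left ventricle pumps against raised pressure, and in sham surgery that step is left out. The Piezo1 protein is an ion channel that opens when the membrane is stretched. The cells and exons that the Piezo1-Cko allele affects, the age of the animals and the time from surgery are not given in the sources used here. Nor do the labels state that the 2 libraries of a group are from different animals. The p-values therefore rest on a spread between samples that may be technical. "Cko" below stands for the libraries labelled Piezo1-Cko.

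Collagen chains wind around each other in groups to form a rod, and each chain carries glycine at the start of a repeated Gly-X-Y unit so that the rod can close. Fibrillar collagens bundle into the stiff fibrils of the heart's interstitium, network collagens form the sheet under endothelium and around cardiomyocytes, beaded collagen VI forms microfilaments near cells, and FACIT collagens (fibril-associated collagens with interrupted helices) sit on the surface of fibrils. In the heart, fibroblasts are the main source of fibrillar collagens, and vascular and other cells make much of the basement membrane. By these types the 44 genes divided into 11 fibrillar, 9 network, 7 beaded, 9 FACIT and 8 other chains, the last holding transmembrane collagens, the collagens XV and XVIII of the basement membrane zone and a few more.

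The types differ in the coding sequence itself, which is shown first because the results are ordered by type. In the longest coding transcript of each gene (GENCODE release M21, build GRCm38), the longest unbroken run of Gly-X-Y codons was 216 to 344 repeats in the fibrillar genes. It was 39 to 66 in the network genes, 28 to 87 in the beaded genes, 32 to 113 in the FACIT genes and 23 to 75 in the others. Col1a1, Col1a2 and Col3a1 had runs of 338, 339 and 344 repeats. Col4a1 was split into 22 such runs and Col4a2 into 24, and Col8a1, whose coding sequence lies in 2 exons, had a longest run of 61. Fibrillar genes also shared the 54-base exon, which made up 41.2% to 55.0% of their coding exons, against 6.15% to 44.4% in FACIT, 5.88% to 8.57% in beaded and at most 5.66% in network genes. The first exons below are the 54-base exons of the 5 fibrillar genes whose level changed, given on the coding strand, 5′ to 3′, with each in-frame glycine codon (GGN) in capitals. They lie in Col1a1 coding exon 8 (chr11:94939904-94939957, plus strand), Col1a2 coding exon 8 (chr6:4515481-4515534, plus), Col3a1 coding exon 6 (chr1:45325360-45325413, plus), Col5a1 coding exon 15 (chr2:27965251-27965304, plus) and Col5a2 coding exon 10 (chr1:45422386-45422439, minus).
Col1a1: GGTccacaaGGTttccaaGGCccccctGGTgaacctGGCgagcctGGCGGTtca
Col1a2: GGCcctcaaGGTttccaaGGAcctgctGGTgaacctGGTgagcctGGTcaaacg
Col3a1: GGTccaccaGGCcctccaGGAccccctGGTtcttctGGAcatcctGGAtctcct
Col5a1: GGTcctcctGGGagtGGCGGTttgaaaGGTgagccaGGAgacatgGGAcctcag
Col5a2: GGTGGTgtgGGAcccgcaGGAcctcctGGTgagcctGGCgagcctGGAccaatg

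Each of these exons opens on a glycine codon and keeps the repeat to its end. Type IV genes hold stretches in which the repeat is broken and taken up again, and for each the first coding exon with such a break between repeats was taken. It is shown for Col4a1 coding exon 21 (chr8:11235095-11235259, minus strand) and Col4a2 coding exon 19 (chr8:11415926-11416075, plus strand), with the same capitals. The break is where more than the usual distance lies between glycine codons.
Col4a1: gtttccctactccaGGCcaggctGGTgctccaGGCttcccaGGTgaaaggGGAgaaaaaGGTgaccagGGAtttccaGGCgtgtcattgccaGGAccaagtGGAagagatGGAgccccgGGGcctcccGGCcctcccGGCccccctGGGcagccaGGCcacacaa
Col4a2: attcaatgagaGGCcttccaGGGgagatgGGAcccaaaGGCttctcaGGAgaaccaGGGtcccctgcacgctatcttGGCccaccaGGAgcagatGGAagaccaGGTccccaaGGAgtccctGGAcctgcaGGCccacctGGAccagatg

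Upstream sequence was compared for the 35 of 44 genes that had an entry among RefSeq promoters (GRCm38.p6), over the 250 bases before the start. GGGCGG, on either strand, was in 60% of these windows and in 32.9% of the 27025 windows of all genes. The other letters searched, also on both strands, were near the share of all genes: TATAAA 14.3% against 13.0%, CCAAT 34.3% against 34.5%, GGAATG 8.57% against 12.6% and GTCTG 40% against 42.1%. None of these motifs contains another, and a match is a description of the sequence only. The windows of Col3a1 and Col8a1, both among the genes with the largest rise under TAC, are shown because their content is unlike, with GGGCGG and TATAAA and CCAAT on either strand in capitals. Col3a1 (chr1:45311288-45311537, plus strand) has 1 TATAAA, no GGGCGG and 35.2% G and C. Col8a1 (chr16:57754738-57754987, minus strand) has 4 GGGCGG, no TATAAA and 60.8% G and C.
Col3a1: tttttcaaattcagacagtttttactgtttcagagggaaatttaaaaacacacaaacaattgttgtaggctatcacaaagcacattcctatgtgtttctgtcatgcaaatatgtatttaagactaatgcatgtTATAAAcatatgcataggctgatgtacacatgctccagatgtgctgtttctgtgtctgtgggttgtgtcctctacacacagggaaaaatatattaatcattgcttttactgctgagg
Col8a1: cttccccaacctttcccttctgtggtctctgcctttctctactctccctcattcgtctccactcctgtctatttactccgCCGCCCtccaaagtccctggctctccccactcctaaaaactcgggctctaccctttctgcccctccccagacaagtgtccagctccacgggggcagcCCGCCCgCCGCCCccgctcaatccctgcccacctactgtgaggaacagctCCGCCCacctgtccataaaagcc

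Values are FPKM, the fragments counted on a gene per kilobase of its length, scaled to library size, and the depth behind them was 15574769 to 17313084 reads assigned to genes per library. Changes were taken between values of log2(FPKM + 0.5), so that those of low genes are understated. They were fitted with limma over all 8 libraries, with adjusted p-values (Benjamini-Hochberg, two-sided) over the 13928 genes that reached 0.5 FPKM and 10 reads in at least 2 libraries. "Passed" means an adjusted p under 0.05. Piezo1 was at 2.35 and 3.09 FPKM in WT sham, 3.83 and 3.24 in Cko sham, 5.38 and 5.83 in WT TAC and 5.24 and 3.89 in Cko TAC. It did not pass between genotypes (adjusted p = 0.774 under sham and 0.653 under TAC), and a total over the gene in whole tissue does not check a deletion limited to some cells or exons. Cardiomyocyte markers summed to 14131 FPKM or more in every library, as the tissue label has it. A marker list lower or higher in bulk tissue cannot tell apart fewer cells and less RNA per cell. The first replicates of WT sham and of WT TAC stood apart from the other 6 libraries on the second principal component (26.5 and 28.6, against -20.2 to -2.24), which held 16.8% of the variance.

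Both of these libraries held RNA of genes known from cartilage. The 10 chondrocyte markers summed to 38.8 FPKM in that WT sham library and 83.4 in that WT TAC library, against 2.56 to 4.90 elsewhere. Most of this was Comp, a cartilage and tendon matrix protein, at 26.1 and 75.4 FPKM against 1.12 to 2.93, while Snorc was at 0 in all libraries and Acan, the main cartilage proteoglycan, at 0.0437 to 0.655. Of the 10, 6 were highest in that WT TAC library and 2 in that WT sham library. The 13 B and plasma cell markers summed to 321 FPKM in WT TAC replicate 1 and 13.6 to 37.2 elsewhere, but 272 of this was Igkc and 22.5 Jchain, and 5 of the 13 were highest there. Mzb1, Cd79a and Cd79b were higher in another library. The 12 myofibroblast markers summed to 641 FPKM there, against 122 to 294 elsewhere, and 9 of the 12 were highest there. Acta2, Tagln and Lrrc17 were higher in another library. Acta2 was at 81.4 FPKM there and at 57.0 to 258 elsewhere. Comp, also among the chondrocyte markers, held 75.4 of the 641. The part of these cells in the collagen values was not tested, and the results are given also without both libraries.

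Of the 44 genes, 29 reached these minimum values and were tested. Of these, 19 were at 0.5 FPKM or more in all 8 libraries, 3 (Col9a2, Col26a1 and Col28a1) passed the filter through TAC libraries alone and 2 (Col20a1 and Col23a1) through sham libraries alone, so a difference in these genes follows in part from the filter. The same holds for Col6a6, which met the filter through sham libraries, with Cko TAC replicate 2 the only TAC library at 0.5 FPKM or more. The 15 genes left untested did not exceed 1.91 FPKM in any library. Highest on average were Col4a1, Col4a2, Col3a1 and Col1a1. The plot of levels shows the 4 highest genes of each type.

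**Figure D1:**
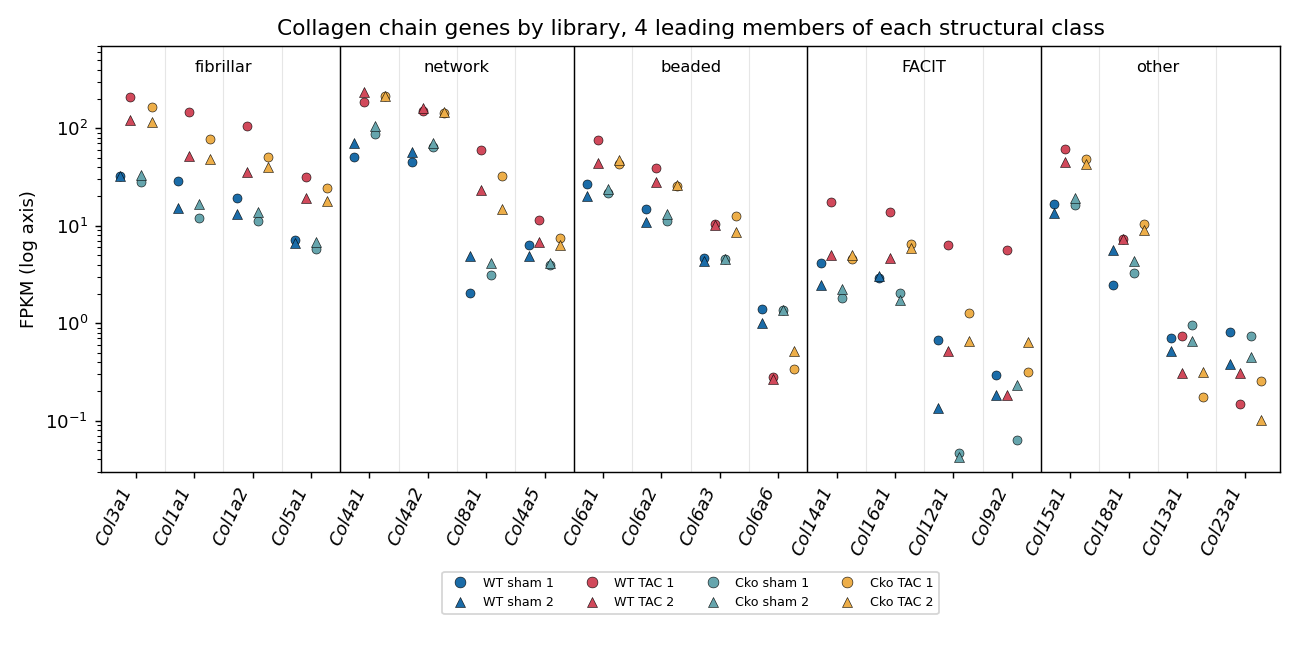
FPKM on a log axis of the 4 collagen chain genes with the highest mean in each type, with 1 point for each of the 8 libraries, coloured by group and shaped by replicate. Col4a1 lies between 50.2 and 106 FPKM in the sham libraries and between 188 and 238 in the TAC libraries, and the TAC points of Col6a6 lie below all its sham points.

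Taken over both genotypes, TAC hearts held more RNA of 16 of the 29 tested collagen genes. Col6a6 and Col20a1 were called lower, but both met the filter through sham libraries, the group where they are high. Their calls give no support. The remaining 11 did not pass. Over all tested genes, 11.9% were higher and 13.5% lower in this averaged comparison. The median log2 fold change was 1.11 over the tested collagen genes and 0.01 over all tested genes. Without the 2 libraries that stood apart, 18 of the 25 genes then testable passed, and 13.6% of all genes tested in that fit did. Against the fit of all 8 libraries, Col20a1 was lost and Col12a1 was gained. In that fit Col12a1 met the filter through TAC libraries alone, so its gain follows in part from the filter. In the 4 TAC libraries, 17 of the 29 tested genes lay above all 4 sham libraries and 3 lay below, against 13.1% and 14.6% of all tested genes. The 3 below were Col6a6, Col20a1 and Col23a1, which met the filter through sham libraries. The 17 above include Col28a1, which met it through TAC libraries alone. For these genes the lack of overlap follows in part from the filter. The 44 genes together took 0.196% to 0.244% of reads in the sham libraries and 0.632% to 1.06% in the TAC libraries.

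Fibrillar chains made the group with the highest median log2 fold change, 1.87 over 7 tested genes, of which 5 rose and none fell. Col1a1 and Col1a2 encode the chains of type I collagen, the main fibril of scar and interstitium. Col1a1 (ENSMUSG00000001506, chr11:94936224-94953042) was at 29.0 and 15.1 FPKM in WT sham, 12.0 and 16.8 in Cko sham, 148 and 52.2 in WT TAC, and 77.5 and 48.5 in Cko TAC. No TAC library overlapped a sham library, and WT TAC replicate 1 was the highest. Its mean was 18.2 ± 7.43 FPKM under sham and 81.5 ± 46.0 under TAC (SD, n = 4 libraries each), and the fitted difference was 2.06 ± 0.363 on the log2 scale (SE; adjusted p = 0.00955 by limma). Col1a2 (chr6:4504814-4541544) was at 19.1 and 13.1 FPKM in WT sham, 11.2 and 13.8 in Cko sham, 105 and 36.0 in WT TAC, and 50.9 and 39.7 in Cko TAC. It rose 3.65-fold (adjusted p = 0.00872 by limma), again with no overlap between the surgeries.

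Col3a1 (ENSMUSG00000026043, chr1:45311538-45349706), the chain of type III collagen that forms thin fibrils with type I, had the tightest sham levels of the abundant fibrillar genes. It was at 32.6 and 32.0 FPKM in WT sham, 28.3 and 33.1 in Cko sham, 211 and 123 in WT TAC, and 164 and 117 in Cko TAC. Its log2 fold change came to 2.23 ± 0.189 (SE; adjusted p = 0.00185 by limma), from 31.5 ± 2.18 to 154 ± 43.4 FPKM (SD, n = 4). The genes of type V collagen, which starts fibrils and sets their width, did not all move. Col5a1 was at 7.17 and 6.67 FPKM in WT sham, 5.79 and 6.85 in Cko sham, 31.4 and 19.1 in WT TAC, and 24.2 and 18.0 in Cko TAC. Its rise was 3.26-fold (adjusted p = 0.00272), with every TAC library above every sham library. Col5a2 was at 5.87 and 4.50 FPKM in WT sham, 4.05 and 4.60 in Cko sham, 44.0 and 13.9 in WT TAC, and 19.3 and 11.8 in Cko TAC. It rose 3.82-fold (adjusted p = 0.00945), with WT TAC replicate 1 far above the other TAC libraries.

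Col5a3, the other type V chain, was at 6.77 to 9.04 FPKM under sham and 8.40 to 11.2 under TAC, and the surgeries overlapped. Its log2 fold change of 0.35 did not pass (adjusted p = 0.118). The ratio of Col5a1 to Col5a3 FPKM was 0.640 to 1.00 in the sham libraries and 1.71 to 3.74 in the TAC libraries. Col27a1, a fibrillar chain of cartilage, was at 0.677 to 0.983 FPKM under sham and 0.649 to 2.12 under TAC and did not pass (adjusted p = 0.357). The untested fibrillar genes were low. Col11a1 reached 1.10 FPKM in WT TAC replicate 1 and at most 0.0724 elsewhere. Col2a1, the main collagen of cartilage, gave 47 of its 52 reads in that library. Col11a2 was highest in WT sham replicate 1, at 1.91 FPKM, and Col24a1 did not exceed 0.0847 FPKM.

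Network chains included the most abundant collagen genes of these hearts, and 4 of 7 tested rose, with a median log2 fold change of 0.88. That median is the value of Col8a2, which did not pass and was high under TAC in WT TAC replicate 1 alone. Col4a1 and Col4a2 encode the chains of the common type IV basement membrane collagen. Their start sites face away from each other on chromosome 8, and the annotated genes overlap, so unstranded reads at that edge cannot be told apart. Col4a1 (ENSMUSG00000031502, chr8:11198423-11312826) was at 50.2 and 70.8 FPKM in WT sham, 87.3 and 106 in Cko sham, 188 and 238 in WT TAC, and 212 and 215 in Cko TAC. The sham libraries spread over a wider relative range than the TAC libraries. The log2 fold change came to 1.48 ± 0.146 (SE; adjusted p = 0.00254 by limma). Col4a2 (chr8:11312805-11449287) was at 44.7 and 57.2 FPKM in WT sham, 63.9 and 71.4 in Cko sham, 149 and 160 in WT TAC, and 143 and 149 in Cko TAC. It rose 2.56-fold (adjusted p = 0.00185), and the TAC libraries stayed within a narrow range (150 ± 6.91, SD, n = 4). The ratio of Col4a1 to Col4a2 was 1.12 to 1.48 under sham and 1.26 to 1.49 under TAC.

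The largest fold of any collagen gene that passed belonged to Col8a1 (ENSMUSG00000068196, chr16:57624258-57754737), a short-chain network collagen of vessel walls. It was at 2.03 and 4.89 FPKM in WT sham, 3.12 and 4.16 in Cko sham, 60.5 and 23.2 in WT TAC, and 32.3 and 15.0 in Cko TAC. The lowest TAC library was above the highest sham library. The log2 fold change came to 2.91 ± 0.391 (SE; adjusted p = 0.00482), a 7.52-fold rise. Its partner Col8a2 was at 0.204 to 1.76 FPKM under sham and at 0.353 to 0.477 in 3 TAC libraries but 16.0 in WT TAC replicate 1, and it did not pass (adjusted p = 0.463). Without that library and WT sham replicate 1, the log2 fold change of Col8a1 was 2.30 (adjusted p = 0.0193).

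Of the other type IV chains, which replace or join the common ones in special basement membranes, Col4a5 alone passed. It was at 6.32 and 4.85 FPKM in WT sham, 3.92 and 4.13 in Cko sham, 11.5 and 6.86 in WT TAC, and 7.46 and 6.41 in Cko TAC. The rise was 1.60-fold (adjusted p = 0.0261), and it no longer passed in 4 of the 8 fits that left out 1 library: WT sham replicate 2, either Cko sham library or Cko TAC replicate 1. Col4a3 and Col4a4, which lie head to head on chromosome 1 with 71 bases between them, did not pass, at 0.325 to 0.701 and 0.777 to 1.65 FPKM. Col4a6 was at most 0.644 FPKM and Col10a1 at most 0.0925, and neither was tested.

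Beaded chains split. The genes of the common collagen VI microfilament rose together, and a chain of another collagen VI form was called lower. Of 5 tested, 3 rose and 1 was called lower (median log2 fold change 1.11). Col6a1 was at 27.1 and 20.1 FPKM in WT sham, 21.5 and 24.0 in Cko sham, 75.0 and 44.4 in WT TAC, and 42.9 and 46.8 in Cko TAC. Col6a2 was at 14.9 and 10.9 FPKM in WT sham, 11.2 and 13.3 in Cko sham, 38.9 and 27.9 in WT TAC, and 25.6 and 26.2 in Cko TAC. In both, WT TAC replicate 1 was the highest and no TAC library overlapped the sham range. Col6a1 rose 2.18-fold (adjusted p = 0.00703) and Col6a2 2.29-fold (adjusted p = 0.00407). Col6a3, the largest of these chains, was at 4.72 and 4.36 FPKM in WT sham, 4.51 and 4.57 in Cko sham, 10.5 and 10.1 in WT TAC, and 12.6 and 8.69 in Cko TAC. Its rise of 2.16-fold (adjusted p = 0.00316) was not led by WT TAC replicate 1.

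Col6a6, a chain that can take the place of Col6a3, went the other way. It was at 1.40 and 1.01 FPKM in WT sham, 1.38 and 1.36 in Cko sham, 0.282 and 0.266 in WT TAC, and 0.337 and 0.518 in Cko TAC. Every TAC library lay below every sham library. Cko TAC replicate 2 was the only TAC library at 0.5 FPKM or more. Col6a6 thus met the filter through sham libraries, and its fall follows in part from this. Its log2 fold change came to -1.07 ± 0.138 (SE; adjusted p = 0.00434 by limma). Col6a5 gave 7 reads and Col6a4 gave 1 read over all 8 libraries. Col28a1, the remaining tested beaded chain, was at 0.186 to 0.460 FPKM under sham and 0.519 to 1.01 under TAC, without overlap, and did not pass (log2 fold change 0.48, adjusted p = 0.0724). 

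FACIT chains were lower in level, and 2 rose of 5 tested, with Col20a1 called lower (median log2 fold change 1.26). Col14a1, which binds fibril surfaces, was at 4.12 and 2.46 FPKM in WT sham, 1.83 and 2.23 in Cko sham, 17.7 and 5.05 in WT TAC, and 4.57 and 5.05 in Cko TAC. The 3 other TAC libraries lay close together while WT TAC replicate 1 was 3.50 times the next highest library. The rise was 2.39-fold (adjusted p = 0.0371). It did not pass without any one of the 4 sham or the 2 Cko TAC libraries (adjusted p at most 0.109). Col16a1 was at 2.90 and 3.05 FPKM in WT sham, 2.04 and 1.73 in Cko sham, 13.9 and 4.68 in WT TAC, and 6.56 and 5.85 in Cko TAC. It rose 2.64-fold (adjusted p = 0.0146) and missed the threshold without either Cko sham library or Cko TAC replicate 1 (adjusted p at most 0.0557).

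Col12a1, a stress-bearing FACIT of tendon, was at 0.670 and 0.134 FPKM in WT sham, 0.0471 and 0.0429 in Cko sham, 6.40 and 0.525 in WT TAC, and 1.28 and 0.654 in Cko TAC. WT sham replicate 1 overlapped the TAC range. The other sham libraries were below 0.5 FPKM. Without WT sham replicate 1 the gene therefore met the filter through TAC libraries alone, and a difference there follows in part from the filter. Its log2 fold change of 1.51 ± 0.555 (SE) did not pass (adjusted p = 0.0841 by limma). It was 0.82 without WT TAC replicate 1 (adjusted p = 0.0828), and it passed without WT TAC replicate 2 (2.20, adjusted p = 0.00473) and without both libraries that stood apart (1.04, adjusted p = 0.0402). Col20a1 was at 0.534 and 0.891 FPKM in WT sham, 0.812 and 0.788 in Cko sham, 0.345 and 0.408 in WT TAC, and 0.454 and 0.349 in Cko TAC. All TAC libraries were lower, with a log2 fold change of -0.49 (adjusted p = 0.0444). It reached the minimum of 0.5 FPKM in sham libraries alone, and it passed in only 1 of the 8 fits with a library left out, the one without WT sham replicate 1. Col9a2, a cartilage FACIT, was at 5.68 FPKM in WT TAC replicate 1 and at most 0.636 in the other libraries and did not pass. Col22a1, untested, was at 1.64 FPKM in WT TAC replicate 1 and at most 0.176 elsewhere. Col9a1 had reads in WT sham replicate 1 and WT TAC replicate 1 alone, 7 and 5 of them, Col19a1 gave 2 reads in all, and Col9a3 was at most 0.210 FPKM.

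The other chains gave 2 that rose and none that fell of 5 tested, with a median log2 fold change of 0.51. That median is the value of Col26a1, which did not pass and met the filter through TAC libraries alone. Col15a1 (chr4:47208161-47313167) encodes a collagen of the basement membrane zone of muscle and capillaries. It was at 16.9 and 13.5 FPKM in WT sham, 16.5 and 19.2 in Cko sham, 62.0 and 45.0 in WT TAC, and 48.7 and 43.0 in Cko TAC. The 2 ranges were far apart, and it rose 2.94-fold (adjusted p = 0.00185). Col18a1, whose C-terminal fragment is endostatin, was at 2.45 and 5.67 FPKM in WT sham, 3.25 and 4.30 in Cko sham, 7.24 and 7.38 in WT TAC, and 10.5 and 9.07 in Cko TAC. Its rise of 2.10-fold (adjusted p = 0.0152) did not pass without Cko sham replicate 1 or Cko TAC replicate 1 (adjusted p at most 0.0609). Slc19a1 is annotated over part of Col18a1 on the opposite strand, so reads there cannot be told apart without strand.

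Transmembrane collagens ran low. Col13a1 was at 0.703 and 0.520 FPKM in WT sham, 0.950 and 0.653 in Cko sham, 0.736 and 0.308 in WT TAC, and 0.177 and 0.314 in Cko TAC, overlapping through WT TAC replicate 1, and did not pass (adjusted p = 0.0973). Col23a1 was at 0.381 to 0.822 FPKM under sham and 0.101 to 0.306 under TAC, without overlap, with a log2 fold change of -0.63 that missed the threshold (adjusted p = 0.0503). Col26a1, a collagen-like protein, was at 0.0345 to 0.144 FPKM under sham and 0.118 to 0.658 under TAC (adjusted p = 0.168). Col7a1, the chain of anchoring fibrils, was at most 0.246 FPKM, and Col17a1 and Col25a1 did not exceed 0.0753.

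**Figure D2:**
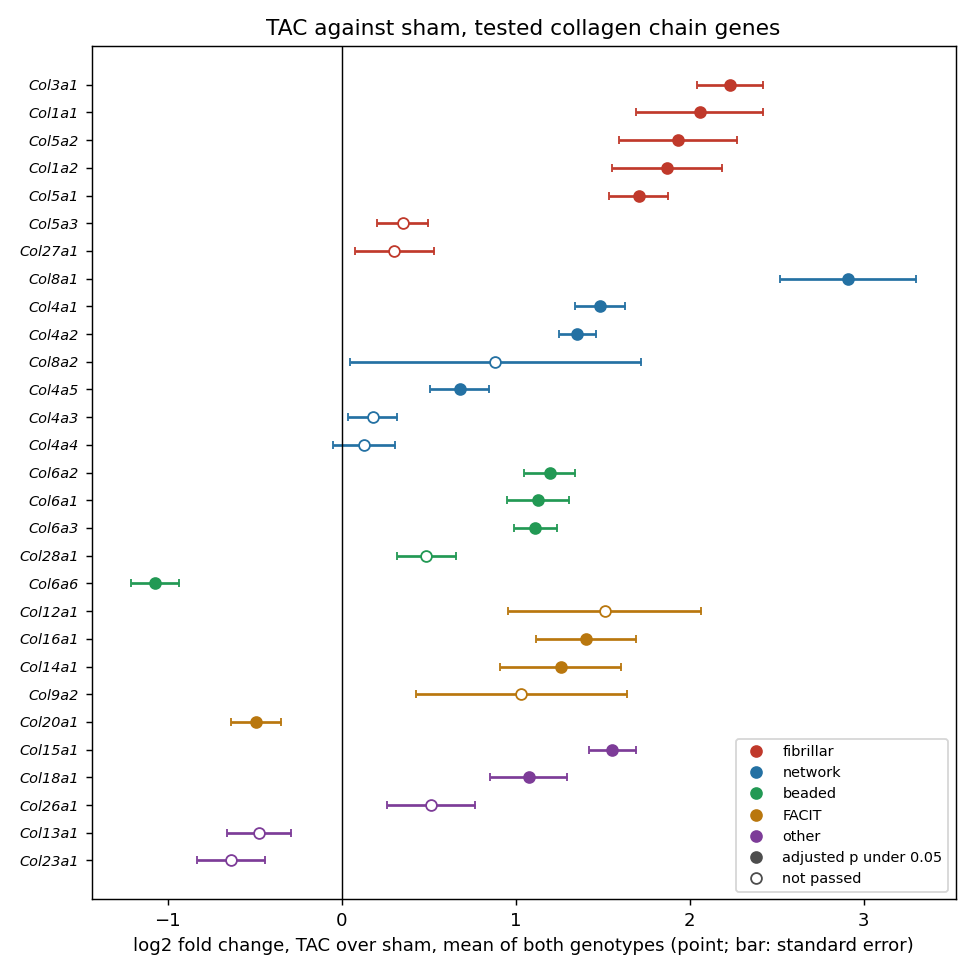
Log2 fold change, TAC against sham averaged over genotypes, for each tested collagen chain gene, with bars for the standard error and genes grouped by type. Fibrillar genes have a median of 1.87, Col8a1 lies farthest right at 2.91, and Col6a6 lies left of 0 at -1.07.

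Within WT alone, 12 of 29 collagen genes rose under TAC and 1 fell, against 5.57% and 7.65% of all tested genes. The rises were Col1a1, Col1a2, Col3a1, Col5a1, Col5a2, Col4a1, Col4a2, Col8a1, Col6a1, Col6a2, Col6a3 and Col15a1, and the fall was Col6a6. In WT, Col6a6 reached 0.5 FPKM in sham libraries alone, so its fall follows in part from the filter. The log2 fold changes of the rises ran from 1.10 in Col6a3 to 3.36 in Col8a1. No FACIT gene passed. Col4a1 (1.82, adjusted p = 0.0103 by limma), Col4a2 (1.60, 0.00656), Col3a1 (2.30, 0.0114) and Col15a1 (1.77, 0.00899) passed in each of the 8 fits that left out 1 library. The other 9 were lost in at least 2 of them, all 9 without WT TAC replicate 1. The share of all tested genes called also fell steeply without that library, so the loss was not particular to collagen genes. In that fit the log2 fold change of Col1a1 went from 2.04 to 1.30, of Col1a2 from 1.93 to 1.16 and of Col5a2 from 2.17 to 1.35. Without WT sham replicate 1 and WT TAC replicate 1 together, which leaves 1 library in each WT group and assumes it to vary like the Cko libraries, no collagen gene passed, and 1 of all genes did. Fitting the WT libraries alone gave 6 in place of 13, and keeping all low genes in the fit gave 5, while the share of all genes called went from 13.2% to 1.95% and 0.899%.

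In Cko, 6 of 29 rose and none fell, against 0.948% and 0.546% of all tested genes. They were Col3a1 (log2 fold change 2.16, adjusted p = 0.0296 by limma), Col5a1 (1.65, 0.0338), Col4a1 (1.15, 0.0479), Col4a2 (1.11, 0.0338), Col6a3 (1.12, 0.0360) and Col15a1 (1.34, 0.0338). Col1a1 had nearly the same estimate as in WT, 2.07, with an adjusted p of 0.0805. Col8a1 was at 2.46 (adjusted p = 0.0694) and Col6a6 at -1.02 (adjusted p = 0.0535). Leaving out either Cko sham library or Cko TAC replicate 1 ended all 6 calls, and leaving out either WT TAC library raised the count to 13, with 2.81% and 2.66% of all genes called. Without both libraries that stood apart, which are WT, 15 genes passed in Cko, beside 3.10% of all genes. The count was also 15 with the Cko libraries fitted alone (2.85% of all genes), and 0 passed when all low genes were kept, beside 0% of all genes. The fits that ended all 6 calls likewise called almost none of all genes.

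The genotypes were then compared directly. Under sham, 0 of 29 collagen genes passed between Cko and WT by limma, against 0.0215% of all tested genes (0.0144% higher and 0.00718% lower). Unadjusted p was under 0.05 for 2 of them, Col4a1 and Col4a2, beside 1069 of all 13928 tested genes. Limma-voom on recovered reads also gave 0. Under TAC again 0 passed, against 0% of all genes, and limma-voom gave 0. At an unadjusted p under 0.05 there were 0, beside 1269 of all 13928 tested genes. For the interaction, the Cko response minus the WT response, 0 passed, against 0.00718% of all genes, and limma-voom gave 0. At an unadjusted p under 0.05 there were 0, beside 664 of all 13928 tested genes. The adjusted p of the members ran from 0.911 to 0.999. Of the 29 estimates 23 were negative, with a median of -0.29, and without WT TAC replicate 1 the median was 0.047. These genotype comparisons share libraries with the TAC comparisons above.

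For single genes the intervals were wide. The interaction was -0.67 ± 0.292 (SE) for Col4a1, -0.50 ± 0.217 for Col4a2 and -0.91 ± 0.782 for Col8a1, on the log2 scale, each with an adjusted p of 0.911 by limma. Col3a1 was at -0.14 ± 0.378 and Col1a1 at 0.03 ± 0.725. Under sham, Col4a1 was 0.68 higher on the log2 scale in Cko (adjusted p = 0.511) and Col4a2 0.41 higher (adjusted p = 0.577), with both Cko sham libraries above both WT sham libraries. The 14 endothelial markers had a median log2 difference of 0.53 and the 10 mural markers of 0.28 in the same direction, against -0.01 over all tested genes. Of either list 0 passed by limma, with 7 and 2 at an unadjusted p under 0.05, beside 1069 of all 13928 tested genes. Endothelial sums were 940 and 1511 FPKM in WT sham and 1516 and 1673 in Cko sham, and their part in the Col4a1 and Col4a2 values was not tested. Under TAC the Col4a1 values of the genotypes overlapped. The plot of both genotypes' fold changes sets these side by side.

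**Figure D3:**
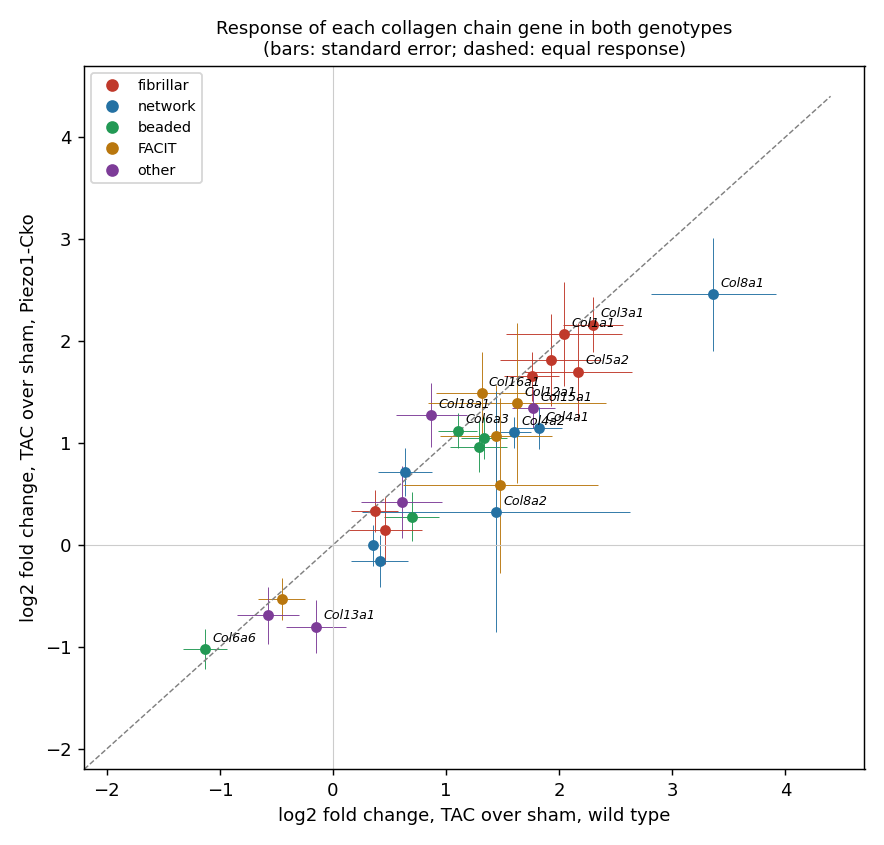
Log2 fold change of TAC against sham in Cko (vertical) against that in WT (horizontal) for the 29 tested collagen chain genes, coloured by type, with a line of equal change. Col8a1 lies at 3.36 in WT and 2.46 in Cko, Col3a1 lies at 2.30 and 2.16, and the interaction passed for none.

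The summed FPKM of the 44 genes was 290 and 283 in WT sham, 298 and 344 in Cko sham, 1221 and 835 in WT TAC, and 901 and 782 in Cko TAC. Its make-up was described per library as each type's share of the summed FPKM of the 44 genes. Fibrillar genes took 36.1% and 28.0% in WT sham, 24.1% and 24.1% in Cko sham, 45.1% and 30.7% in WT TAC, and 38.7% and 31.4% in Cko TAC. Network genes took 36.8% and 49.3% in WT sham, 53.9% and 54.5% in Cko sham, 35.0% and 51.6% in WT TAC, and 44.1% and 49.6% in Cko TAC. The fibrillar share was highest and the network share lowest in WT TAC replicate 1, and the other library that stood apart, WT sham replicate 1, came next lowest in the network share. Beaded genes took 12.7% to 16.7% under sham and 9.11% to 10.6% under TAC, so that this share was lower in every TAC library than in every sham library although Col6a1, Col6a2 and Col6a3 rose. FACIT genes took 1.48% to 3.08% under sham and 1.33% to 3.75% under TAC. The FPKM ratio of Col3a1 to Col1a1 was 1.13 and 1.43 in the libraries that stood apart and 1.97 to 2.42 in the other 6, whichever the surgery, and that of Col1a1 to Col1a2 was 1.07 to 1.52 in all 8.

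**Figure D4:**
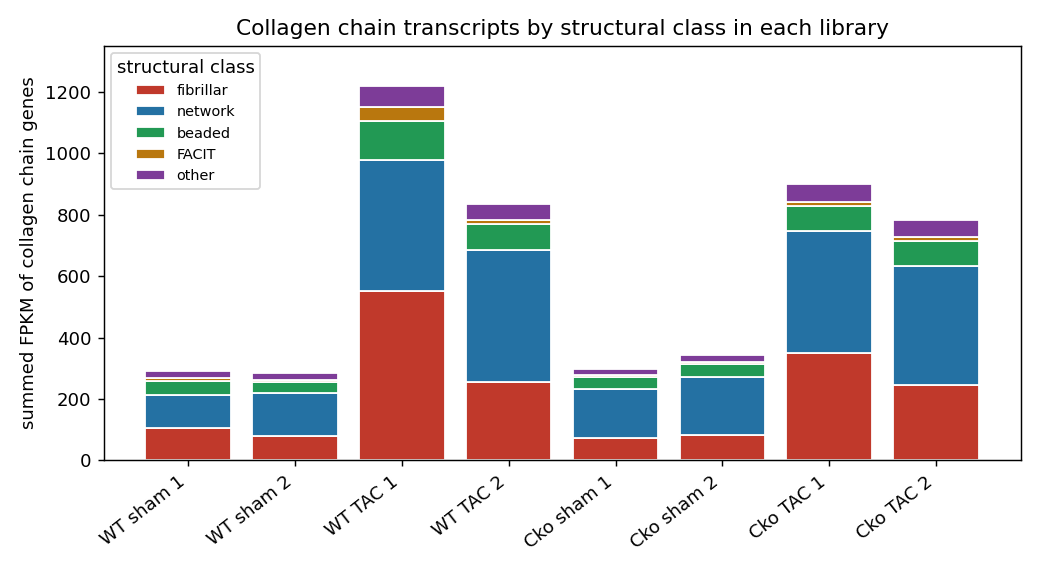
Summed FPKM of the 44 collagen chain genes in each of the 8 libraries, as bars from 0 stacked by type. The TAC bars end between 782 and 1221 and the sham bars between 283 and 344, and the network and fibrillar types fill most of every bar.

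WT TAC replicate 1 was the highest library for 23 of the 44 genes and for 18 of the 29 tested, against 17.8% of all tested genes. Its level over the next highest library was 19.4 times for Col2a1, 15.2 for Col11a1, 9.34 for Col22a1, 9.10 for Col8a2, 8.93 for Col9a2 and 5.0 for Col12a1. Col2a1, Col11a1 and Col9a2 are collagens of cartilage. Igkc, an antibody light chain, was at 272 FPKM there and at 4.24 to 25.9 elsewhere. Abundant chains were less apart, at 1.91 times the next highest library for Col1a1, 2.05 for Col1a2 and 1.29 for Col3a1. Col4a1 was lower there than in the other 3 TAC libraries.

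**Figure D5:**
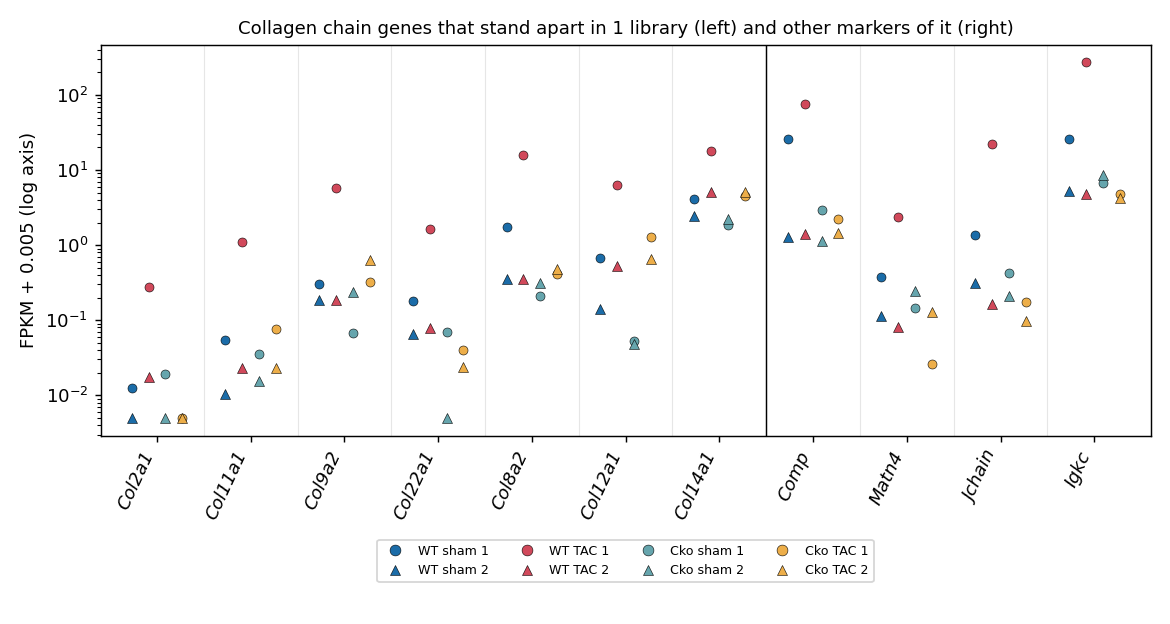
FPKM + 0.005 on a log axis in each of the 8 libraries for 7 collagen chain genes (left of the line) and 4 cartilage and plasma cell markers (right), chosen after their values were seen. WT TAC replicate 1 is the highest point of all of them, and for Comp, Matn4, Jchain and Igkc WT sham replicate 1 comes next.

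The partners of collagen were described from lists of known function, for TAC against sham averaged over genotypes, where 11.9% of all tested genes were higher and 13.5% lower. Of the genes that fold, modify and cross-link the chains, 16 of 32 tested rose and 1 fell (P3h4, a part of the complex that hydroxylates lysine in collagen). Loxl2, an enzyme that cross-links fibrils, rose 3.98-fold (adjusted p = 0.00148), Colgalt1, which adds galactose to hydroxylysine, 1.87-fold (0.00504), and Serpinh1, the collagen chaperone, 1.69-fold (0.00687). Of 15 basement membrane partners 8 rose and 3 fell. Nid1 and Nid2, which link type IV collagen to laminin, rose 2.12-fold (0.00207) and 2.21-fold (0.00318), and the laminin chain Lamc1 rose 1.94-fold (0.00185). The 3 that fell, Lamb3, Lama5 and Lamb2, are also laminin chains.

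Of 19 fibril organisers 7 rose and none fell, with Postn, a matricellular protein of activated fibroblasts, at 8.08-fold (adjusted p = 0.00625), Fn1, the fibronectin on which fibrils are laid, at 4.34-fold (0.00854), and Sparc, a collagen-binding protein also counted among the basement membrane partners, at 2.86-fold (0.00404). Of 16 genes of collagen breakdown 6 rose and none fell. They included inhibitors as well as enzymes: Timp1, which inhibits matrix metalloproteinases, rose 14.9-fold (0.00148), the protease Ctss 2.62-fold (0.00726) and Mmp14, a membrane-bound collagenase, 2.22-fold (0.0152). Of 11 collagen receptors 4 rose and none fell, among them the integrin chain Itgb1 (1.61-fold, 0.00588), the inhibitory receptor Lair1 of leukocytes (1.61-fold, 0.0106) and Mrc2, which takes up collagen (2.22-fold, 0.0181).

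Markers of the cells that could give this RNA moved too. Of 12 myofibroblast markers 6 rose, of 15 fibroblast markers 5 rose and 2 fell, of 12 macrophage markers 9 rose, and of 12 cardiomyocyte markers 7 fell in the averaged comparison. Of the 14 endothelial markers 0 passed by limma, with 3 at an unadjusted p under 0.05, beside 5616 of all 13928 tested genes. Summed levels of the fibroblast markers were 1073 to 1557 FPKM under sham and 883 to 1189 under TAC. Of these sums Gsn alone held 585 to 822 FPKM under sham and 255 to 370 under TAC. The median log2 fold change of the 15 fibroblast markers was 0.22. Sums of macrophage markers were 265 to 294 FPKM under sham and 377 to 509 under TAC. Those of cardiomyocyte markers were 23350 to 26613 and 14131 to 18346. Endothelial markers summed to 940 FPKM in the first WT sham library and 804 in the first WT TAC library, against 1324 to 1690 in the other 6 libraries. The part of these cell markers in the collagen values was not tested. Some genes are in more than 1 list: Postn and Comp also mark myofibroblasts, and Lum, Dcn and Dpt also mark fibroblasts.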

How the data were processed

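RNA was extracted with Trizol and libraries were made with the NEBNext Ultra kit, per the labels' protocols. The builds mm8 and mm10 and the tools featureCounts 1.5.0-p3, Bowtie 0.12.2 and CASAVA 1.8 are named, without role, in the submitters' processing notes. Strand setting and scaling method are not given in the sources used here. The authors deposited 1 table of FPKM for 8 libraries, named as counts, with gene coordinates and lengths. Multiplied by gene length, the values of a library were whole multiples of one step within 0.01 read, which gave back the reads of each gene. All 44 genes had the same coordinates in GENCODE release M21 (GRCm38), and 28 overlap another annotated gene.

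The table of 13928 genes was fitted with limma 3.58.1 in R 4.3.3 on log2(FPKM + 0.5), with trend and robust moderation, 1 term per group and 4 residual degrees of freedom. Libraries were grouped by labelled genotype and surgery. Compared were TAC and sham within WT, within Cko and averaged, Cko against WT under each surgery, and the interaction. Libraries of a group differed by more than counting noise (chi-square per degree of freedom 17.3 to 44.1). The steps were also run on simulated data with the same spread for every gene and no library that stood apart. That setting is unlike these data, so it does not check the calls given here. The genes, types, companion and marker lists and tests were chosen with earlier results of these data known, so the lists are not independent evidence. Values in every library are given for the 3 highest genes of each type, the 3 markers Col1a1, Col3a1 and Col8a1, and every gene that passed; of each companion list, up to 3 genes of smallest p are given. Genes named beyond these were chosen after their values were seen.

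Alternatives were pseudocounts of 0.1 and 1 FPKM, no filter and a stricter filter (1 FPKM in 4 libraries), rescaling to read totals with and without mitochondrial genes, limma-voom on recovered reads, the compared groups alone, a replicate block, each library left out, and both libraries that stood apart left out.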

Additional observations from a re-analysis of the deposited data

Results flagged for a closer look

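In 5 of 58 sets of 4 libraries of 1 surgery, 1 library lay far from the other 3, with the gap to the nearest of them, divided by the whole range, above the limit of Dixon's test. Chance alone gives about 1 in 20 such sets. Col14a1 was highest in WT TAC replicate 1 among the TAC libraries (0.929 of the range), as were Col6a1 (0.845) and Col8a2 (0.954). Col8a2 was also highest in WT sham replicate 1 among the sham libraries (0.842). Col6a6 was lowest in WT sham replicate 2 among the sham libraries (0.918), at 1.01 FPKM against 1.36 to 1.40.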

How the results depend on the processing

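The averaged TAC comparison called 13 to 20 collagen genes with 1 library left out, 13 to 17 of them among the 18, and 13 of the 18 passed in every such fit: Col1a1, Col1a2, Col3a1, Col5a1, Col5a2, Col4a1, Col4a2, Col8a1, Col6a1, Col6a2, Col6a3, Col6a6 and Col15a1. In WT the count of 13 became 5 without the filter, 6 with only the compared groups in the fit, 0 without both libraries that stood apart, and 4 to 19 with 1 library left out. In Cko the count of 6 became 0 without the filter, 15 with only the compared groups, 15 without both libraries, and 0 to 13 with 1 left out. Among the 18 genes called in the averaged comparison, Col6a6 and Col20a1 met the filter through sham libraries, where they are high. Their calls give no support. The share of all tested genes called moved with the counts above. In WT it went from 13.2% to 0.899% without the filter and 1.95% with only the compared groups. In Cko it went from 1.49% to 0% and 2.85%. It also moved in the fits with 1 library left out, in WT, in Cko and averaged. In each of these comparisons, the fits that called the smallest share of all genes were among those that called the fewest collagen genes. Without the filter more genes share the adjustment. Cko against WT under TAC gave 0 to 1 with 1 library left out, the 1 being Col9a2, lower in Cko without WT TAC replicate 2. The cause was not tested.

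Signs turned for these values on the log2 scale. With 1 library left out, the median for Cko against WT under TAC ran from -0.581 (without WT TAC replicate 2) to 0.0108 (without WT TAC replicate 1) and that of the interaction from -0.562 to 0.047. Without both libraries that stood apart they were 0.0116 and 0.0371. The interaction of Col1a1 ran from -0.720 (without WT TAC replicate 2) to 0.774 (without WT TAC replicate 1) and was -0.0218 after rescaling to totals without mitochondrial genes. That of Col3a1 ran from -0.527 to 0.253 over the same libraries and was 0.240 without both, when that of Col8a1 was 0.323. The averaged Col4a4 value ran from -0.0595 (without Cko TAC replicate 2) to 0.316 (without Cko TAC replicate 1). The cause was not tested. Rescaling to read totals moved the median of all genes by 0.19 in the averaged comparison, with 19 collagen genes then called. The share of all genes called was then 33.4%, against 25.4% in the main fit.

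The labels give libraries only a shared number, and pairing by it was not borne out in every pair of groups: same-numbered libraries correlated at 0.026 to 0.248 between groups in their deviations from group means, and with the replicate number as a block the calls were 13 in WT, 6 in Cko, 19 averaged and 0 in each genotype comparison and the interaction. The block fit called 15.7% of all genes in WT, 1.69% in Cko and 26.9% averaged. Depth limits the lowest genes: Col6a4, Col19a1, Col6a5, Col9a1 and Col10a1 had 1 to 16 reads in all libraries together.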
